A study of Rattus norvegicus with 15 samples.

Results

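The genes described here carry calcium into muscle cells, store and release it inside them, and exchange it for sodium. They are Cacna1c, Cacna2d1, Ryr2, Itpr1, Atp2a2, Jph2, Slc8a1 and Atp1b1, 8 genes of the 10969 named on the arrays. They were chosen by name, with earlier results of these data known. They were read at all 28 probe sets, of 26202, that the platform annotation assigns to 1 of these symbols alone. A probe set is the group of short probes that reads 1 transcript. On at least 1 array, 15 of the 28 probe sets and 7 of the 8 genes exceeded a floor, the pooled median signal of each chip type, below which no difference was read. That floor was 149.79 for chip A, 241.69 for chip B and 243.01 for chip C. Ryr2 was the gene that did not pass it.

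The arrays compared rat ductus arteriosus with aorta around birth in 5 states: newborn ductus, ductus of fetuses whose dams breathed 100% oxygen for 3 h (oxygen ductus), fetal ductus, newborn aorta and fetal aorta. Newborns were killed 3 h after vaginal delivery and fetuses delivered at day 19 of gestation, and no allele or strain is given. Vessels were dissected free of adhering tissue in cold Krebs medium bubbled with gas of 12.5% oxygen for newborns and 2.5% for fetuses, the aorta being its arch and thoracic segments. Fetal and newborn states differed in birth, age and dissection gas together, and the parts of these cannot be told apart. A birth effect, response or ratio below means that whole difference. There was 1 array per state on each of 3 chip types, 15 arrays, and how many animals went into an array is not given. For newborn aorta on chip A the title (3 h after coitum) and the description (a newborn) disagree, and the description was followed. States on chips B and C were read from the titles, since their descriptions mostly mix all states. The study compared the vessels before and after birth to find markers of each state, and set oxygen and newborn ductus against fetal ductus.

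The ductus arteriosus is the fetal vessel that carries blood from the pulmonary artery past the lungs into the aorta, and it constricts and closes after birth. Contraction of its smooth muscle is driven by calcium, which enters through voltage-gated channels and leaves the sarcoplasmic reticulum through release channels. Pumps return calcium to that store, and the sodium-calcium exchanger moves it across the surface membrane along the sodium gradient that the sodium pump maintains. Heart muscle uses most of the same proteins, so heart muscle genes were read on the same arrays.

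The deposited arrays had been scaled to a common level, with trimmed means of 500.3 to 500.9, and 46.8% to 51.8% of their probe sets were above the floor. The oxygen ductus stood apart in RNA quality controls. Its 3′ over 5′ signal ratio, which increases as RNA is degraded or copied incompletely, was 2.54 to 3.26 for beta-actin on its 3 arrays, against 1.19 to 1.51 on the other 12. For GAPDH the ratio was 1.69 to 2.49, against 1.26 to 1.58. All smooth muscle markers, 16 of 16, were above the floor in every state, with summed signals of 158079 in newborn ductus, 116545 in oxygen ductus, 110635 in fetal ductus, 100223 in newborn aorta and 77182 in fetal aorta. Heart muscle markers were also present, with 21, 22, 24, 20 and 19 of 25 genes above the floor in the same order of states and none at 0. Their summed signals were 23468 in newborn ductus, 43094 in oxygen ductus, 45111 in fetal ductus, 30459 in newborn aorta and 22320 in fetal aorta. Fat genes summed to 11578 in newborn aorta and to 1167 to 1726 in the other states. Nerve and chromaffin genes summed to 3935 in fetal aorta and to 1109 to 1989 in the other states. In whole vessels, fewer cells of a type and less RNA per cell cannot be told apart.

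Promoter sequence is shown for 4 of the genes because they fall into different patterns below. At their probe sets of highest mean signal, Cacna2d1, Jph2 and Slc8a1 were lowest in the fetal aorta and Cacna1c was not. Another probe set of Slc8a1 was not lowest there. Of the 8 genes, 7 have an entry in the RefSeq promoter table of the rat build GRCr8, which runs from 250 bases before to 50 bases after a transcript start; Atp1b1 has none. Capitals mark a match, on either strand, to CATTCC (MCAT) or CCAAT; the others searched, TATAAA and the CArG and MEF2 motifs, have no match in the 4 windows shown. Cacna2d1 has 3 entries, and the first is given.
Cacna1c, chr4:154051699-154051998, minus strand: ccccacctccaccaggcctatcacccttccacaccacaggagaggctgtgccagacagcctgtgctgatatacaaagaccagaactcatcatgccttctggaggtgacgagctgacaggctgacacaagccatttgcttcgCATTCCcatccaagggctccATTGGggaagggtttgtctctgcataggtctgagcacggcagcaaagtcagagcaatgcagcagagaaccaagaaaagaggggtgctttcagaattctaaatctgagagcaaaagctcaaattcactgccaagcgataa
Cacna2d1, chr4:20330098-20330397, minus strand: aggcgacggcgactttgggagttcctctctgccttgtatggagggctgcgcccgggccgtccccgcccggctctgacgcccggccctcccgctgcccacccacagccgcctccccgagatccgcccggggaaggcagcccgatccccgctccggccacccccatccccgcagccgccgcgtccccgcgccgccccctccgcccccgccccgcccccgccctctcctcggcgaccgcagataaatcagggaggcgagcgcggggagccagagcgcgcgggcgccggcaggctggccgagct
Jph2, chr3:172477872-172478171, minus strand: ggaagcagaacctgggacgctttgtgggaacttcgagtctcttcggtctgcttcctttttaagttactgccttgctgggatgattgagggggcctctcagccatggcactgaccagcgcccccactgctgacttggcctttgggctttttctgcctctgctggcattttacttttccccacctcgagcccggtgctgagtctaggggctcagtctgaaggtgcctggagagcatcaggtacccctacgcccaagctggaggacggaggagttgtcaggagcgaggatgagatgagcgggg
Slc8a1, chr6:19023309-19023608, plus strand: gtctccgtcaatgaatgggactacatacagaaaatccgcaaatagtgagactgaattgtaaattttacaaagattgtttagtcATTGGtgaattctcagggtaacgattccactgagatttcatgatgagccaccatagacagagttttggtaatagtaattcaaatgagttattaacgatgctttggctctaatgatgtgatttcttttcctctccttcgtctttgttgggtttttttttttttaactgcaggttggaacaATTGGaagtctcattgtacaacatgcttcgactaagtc

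In the Cacna1c window CATTCC began 109 bases and CCAAT, read on the opposite strand, 89 bases before the start, with no overlap. Slc8a1 held CCAAT on the opposite strand 167 bases before the start and again 13 bases after it. The windows shown for Cacna2d1 and Jph2 held none of the motifs searched, but the third entry of Cacna2d1, not shown, holds CCAAT 42 bases after its start. Over 33469 rat promoters of the same length, CCAAT was found in 37.5%, CATTCC in 14.2%, TATAAA in 14.2%, the MEF2 motif in 3.29% and the CArG motif in 1.64%, so the matches shown are of common motifs. The base composition differed widely, with 78.3% G and C for Cacna2d1, 58.0% for Jph2, 51.7% for Cacna1c and 36.3% for Slc8a1, against a median of 51.7% for all promoters. None of these matches was tested for binding. The starts are as listed and were not checked, so a window need not be the promoter used in these vessels.

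Among the 7 genes above the floor, 5 were at least 1.5-fold higher in fetal ductus than in fetal aorta: Jph2, Cacna2d1, Atp1b1, Atp2a2 and Slc8a1. Of all genes compared, 4.2% were higher and 5.1% lower. After birth 2 of the 5 genes remained at least 1.5-fold apart, Cacna2d1 and Atp1b1, where 6.16% of all genes were higher and 5.98% lower. Within the ductus, none of the 7 was 1.5-fold apart between newborn and fetus, where 7.56% of all genes were higher and 9.59% lower. Most genes were thus within 1.5-fold there as well. Of 24 heart muscle genes, 12 were lower in the newborn. With 1 array per state and chip these ratios have no replicate error and no p. The scatter of a log2 ratio across probe sets, estimated from the vessel by stage contrast, was 0.289 for chip A, 0.33 for chip B and 0.297 for chip C. Unless another probe set is named, values of a gene are those of the brightest one, and signals under the floor were set to it before ratios were taken.

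**Figure D1:**
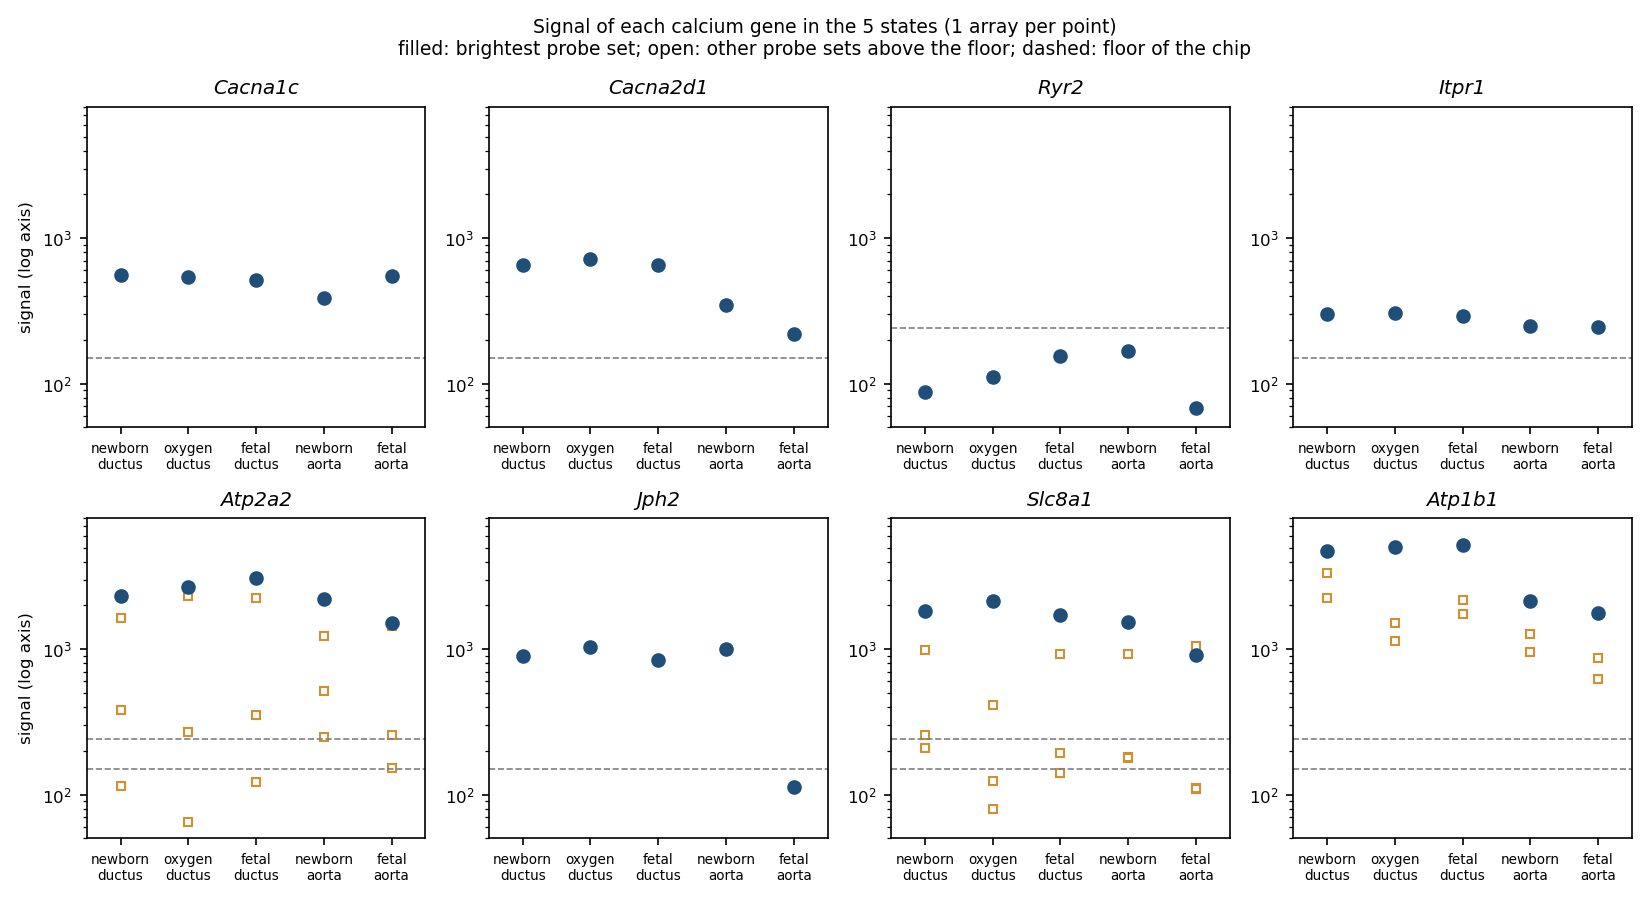
Signal intensity (log axis) of each gene in the 5 states, 1 array per point. Filled circles are the brightest probe set of a gene, open squares its other probe sets that passed the floor anywhere, and dashed lines the floors of the chips. Cacna2d1 and Atp1b1 are lower in both aortas than in the 3 ductus states, Jph2 is under the floor in fetal aorta alone, and Ryr2 is under it everywhere.

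Calcium entry was read at the pore-forming subunit and an auxiliary subunit of the L-type voltage-gated channel. Cacna1c encodes the pore-forming subunit, the main route of voltage-gated calcium entry in vascular smooth muscle and heart. Its signal at M59786_at was 562.2 in newborn ductus, 541.0 in oxygen ductus, 512.0 in fetal ductus, 390.7 in newborn aorta and 545.9 in fetal aorta. Newborn aorta was the low state, and the other 4 lay close together. The ductus was 1.44-fold higher than the aorta in newborns (log2 0.53), whereas in fetuses the log2 ratio of ductus over aorta was -0.09, under the scatter of 0.289. The other 2 probe sets of Cacna1c were under the floor on all arrays, at 17.9 to 137.6.

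Cacna2d1 encodes the alpha2delta subunit, an extracellular protein that increases the number of channels at the surface. Its single probe set, M86621_at, read 652.0 in newborn ductus, 723.4 in oxygen ductus, 657.2 in fetal ductus, 349.0 in newborn aorta and 220.1 in fetal aorta. The 3 ductus states were all above both aortas. The ductus was 1.87-fold higher than the aorta in newborns and 2.99-fold higher in fetuses, log2 ratios of 0.90 and 1.58. Between newborn and fetal ductus the log2 ratio was -0.01, while newborn aorta was 1.59-fold above fetal aorta. The pore-forming subunit and its partner thus had different orders over the states: Cacna1c in fetal aorta was 1.40-fold above newborn aorta, and Cacna2d1 was lowest there.

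Calcium release was read at Ryr2 and Itpr1. Ryr2 encodes the ryanodine receptor through which heart muscle empties its store at each beat. Its probe set on chip C read 87.4 in newborn ductus, 111.1 in oxygen ductus, 153.6 in fetal ductus, 167.3 in newborn aorta and 68.4 in fetal aorta, all under the floor of 243.01. The probe set on chip A, U95157_at, read 54.5, 16.1, 37.9, 39.9 and 21.2 in the same order, under 149.79. Neither probe set gives a level or a ratio for Ryr2 in any state, and a signal under the floor does not show that the transcript was missing.

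Itpr1 encodes the receptor for inositol trisphosphate, the release channel that hormones and transmitters open in smooth muscle. At J05510_at it read 303.2 in newborn ductus, 308.2 in oxygen ductus, 293.5 in fetal ductus, 248.0 in newborn aorta and 243.8 in fetal aorta. The ductus states were above the aortas, but only 1.22-fold in newborns and 1.20-fold in fetuses, log2 ratios of 0.29 and 0.27 that are about the size of the scatter. Its signal differed little between newborn and fetus in either vessel, with log2 ratios of newborn over fetus of 0.05 in ductus and 0.02 in aorta. The other 4 probe sets of Itpr1 were under the floor on all arrays.

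The store itself was read at Atp2a2 and Jph2. Atp2a2 encodes the sarcoplasmic reticulum calcium pump (SERCA2) of heart, slow skeletal and smooth muscle, which refills the store. At its brightest probe set, AA799276_at, the signal was 2316.4 in newborn ductus, 2676.0 in oxygen ductus, 3094.4 in fetal ductus, 2232.1 in newborn aorta and 1506.4 in fetal aorta. Fetal ductus was highest and fetal aorta lowest, and the newborn vessels met between them. Ductus over aorta was 1.04-fold in newborns and 2.05-fold in fetuses. Newborn ductus had 0.749 of the fetal ductus signal, while newborn aorta was 1.48-fold above fetal aorta.

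At the 2 other probe sets of Atp2a2 above the floor in all states, the vessel ratio was larger in newborns and smaller in fetuses than at the brightest. At rc_AA957510_s_at the signal was 1649.5 in newborn ductus, 2333.5 in oxygen ductus, 2264.1 in fetal ductus, 1240.7 in newborn aorta and 1435.7 in fetal aorta, which is 1.33-fold in newborns and 1.58-fold in fetuses for ductus over aorta. At J04024_at it was 382.7, 269.4, 354.4, 250.2 and 255.5 in the same order, 1.53-fold in newborns and 1.39-fold in fetuses. These 3 probe sets put the ductus above the aorta at both ages, by as little as 1.04-fold, while the difference between the vessels' birth responses, ductus minus aorta, was log2 -0.99 at the brightest and -0.25 and 0.14 at the others. A probe set on chip B was above the floor in newborn aorta alone, at 519.5, with 64.3 to 153.0 elsewhere, and so put the newborn ductus at least 2.15-fold below the newborn aorta.

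Jph2 encodes junctophilin, which ties the surface membrane to the sarcoplasmic reticulum at the junctions where entry triggers release, and is known mainly from heart muscle. Its single probe set, rc_AA799580_at, read 902.6 in newborn ductus, 1039.5 in oxygen ductus, 845.2 in fetal ductus, 1007.1 in newborn aorta and 112.1 in fetal aorta. Fetal aorta was the only state under the floor, and the other 4 lay within a narrow band. Against the floor, fetal ductus was at least 5.64-fold and newborn aorta at least 6.72-fold higher than fetal aorta, log2 bounds of 2.50 and 2.75. With the floor at the 60th percentile the bounds were lower, at log2 1.83 for fetal ductus and 2.08 for newborn aorta. In newborns the ductus had 0.896 of the aortic signal. Both bounds for Jph2 rest on the same single array, the fetal aorta on chip A, with no second probe set to set beside it.

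Exchange was read at Slc8a1, which encodes the sodium-calcium exchanger of heart and smooth muscle. At rc_AI007725_at the signal was 1837.9 in newborn ductus, 2151.4 in oxygen ductus, 1726.3 in fetal ductus, 1543.9 in newborn aorta and 914.7 in fetal aorta. Fetal aorta was again the low state. Ductus over aorta was 1.19-fold in newborns and 1.89-fold in fetuses, and newborn aorta was 1.69-fold above fetal aorta. Between newborn and fetal ductus the log2 ratio was 0.09.

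The next brightest probe set of Slc8a1 did not show the low fetal aorta. X68812_s_at read 995.8 in newborn ductus, 415.6 in oxygen ductus, 924.1 in fetal ductus, 928.0 in newborn aorta and 1051.5 in fetal aorta, where the low state was the oxygen ductus. Ductus over aorta at this probe set was 1.07 in newborns and 0.879 in fetuses. Another, U04937_s_at, gave 1.42-fold in newborns and at least 1.28-fold in fetuses, with oxygen ductus at 80.1 and fetal aorta at 110.0 under the floor. The higher Slc8a1 signal of fetal ductus over fetal aorta therefore reached 1.5-fold at 1 of 3 measured probe sets.

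Atp1b1 encodes the beta subunit of the sodium pump, which that pump needs to reach the membrane and which supports the sodium gradient behind exchange. At rc_AI112173_at the signal was 4746.1 in newborn ductus, 5080.8 in oxygen ductus, 5231.1 in fetal ductus, 2133.2 in newborn aorta and 1772.7 in fetal aorta. All 3 ductus states were above both aortas, and ductus over aorta was 2.22-fold in newborns and 2.95-fold in fetuses. The other 2 measured probe sets put the ductus above the aorta by similar factors. At rc_AI176376_s_at on chip C the signal was 3359.3 in newborn ductus, 1505.5 in oxygen ductus, 2182.8 in fetal ductus, 1279.5 in newborn aorta and 872.0 in fetal aorta, or 2.63-fold in newborns and 2.50-fold in fetuses. At rc_AI230614_s_at the vessel ratio was 2.33-fold in newborns and 2.82-fold in fetuses. For Atp1b1 ductus over aorta was thus above 2-fold at 3 probe sets and at both ages.

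**Figure D2:**
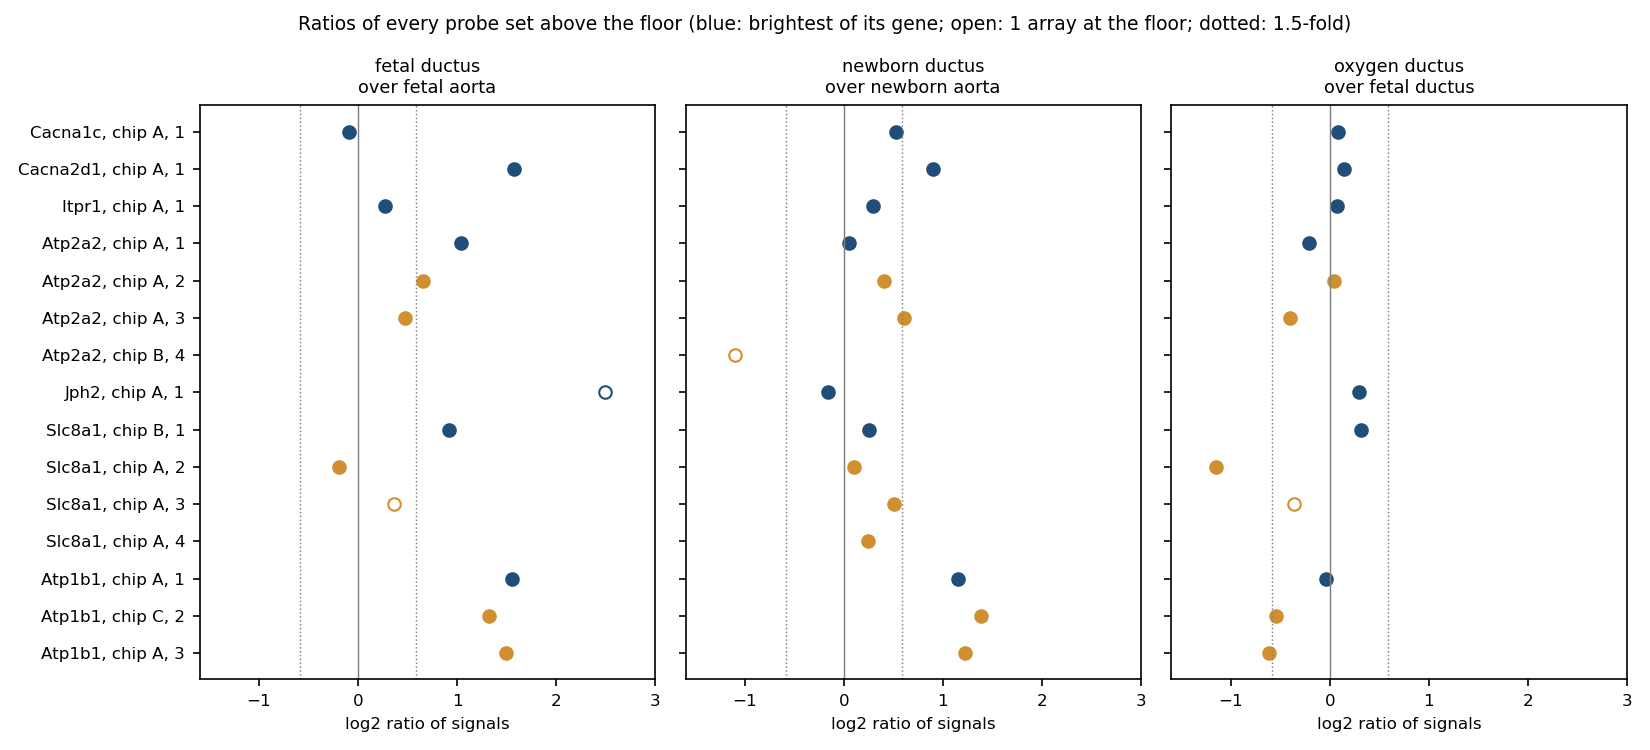
Log2 ratio of signals for every measured probe set, by gene and chip, with fetal ductus over fetal aorta, newborn ductus over newborn aorta and oxygen ductus over fetal ductus from left to right. Blue points are the brightest probe set of a gene, open points have 1 array at the floor, and dotted lines mark 1.5-fold. The 3 Atp1b1 points lie close together in both vessel comparisons and apart under oxygen, and the Slc8a1 points are spread in the fetal and oxygen comparisons.

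Set against all genes, the fetal vessel comparison had 5 of 7 members at least 1.5-fold higher in ductus and 0 lower, where 4.2% of the 7612 genes compared were higher and 5.1% lower. The median log2 ratio of the members was 1.04, against -0.02 for all genes. The members were chosen with earlier results of these data known, so this contrast with all genes is not independent of that choice. With the mean of all measured probe sets, 4 members were apart, Slc8a1 being at log2 0.36. Heart muscle genes were also higher in fetal ductus, 16 of 24 with 0 lower and a median of 0.85, and so were 9 of 16 smooth muscle genes with a median of 0.68. Actc1, the cardiac alpha-actin, read 9620.7 in fetal ductus and 4285.4 in fetal aorta, and Myl7, an atrial myosin light chain, read 4127.7 and 2132.4. Nerve and chromaffin genes were 7 of 8 lower in fetal ductus, with a median of -0.8. The part of heart muscle, smooth muscle and nerve cells in the fetal ratios of the members was not tested.

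In newborns 2 of 7 members were at least 1.5-fold higher in ductus than in aorta and 0 lower, where 6.16% of 7528 genes were higher and 5.98% lower. The median of the members was 0.29, against -0.01 for all genes. The heart muscle list stood on the other side, with 1 gene higher, 8 of 21 lower and a median of -0.47. Cacna2d1 and Atp1b1 were higher in newborn ductus, at log2 0.90 and 1.15. Smooth muscle genes had a median of 0.67, with 8 of 16 higher. Tagln, an actin-binding protein of smooth muscle, read 24563.6 in newborn ductus and 13677.9 in newborn aorta, and Acta2, the smooth muscle alpha-actin, read 30804.8 and 23048.4. Fat genes were 8 of 8 lower in newborn ductus, with a median of -2.24. The part of heart muscle, smooth muscle and fat in the members' ratios was not tested.

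Between newborn and fetal ductus 0 of 7 members were 1.5-fold apart in either direction, where 7.56% of 7552 genes were higher and 9.59% lower. The members' log2 ratios ran from -0.42 for Atp2a2 to 0.13 for Cacna1c, with a median of 0.05, against -0.05 for all genes. In the same pair of states 12 of 24 heart muscle genes were lower and 0 higher, with a median of -0.61. Myl7 read 1099.2 in newborn ductus and 4127.7 in fetal ductus, and Actc1 read 3190.3 and 9620.7. Tnnc1, the troponin C of heart and slow muscle, was closer, at 8176.4 and 9652.3, as was Myl4, an atrial and fetal myosin light chain, at 2491.1 and 4030.9. Smooth muscle genes had 8 of 16 higher in newborn ductus and a median of 0.58. The ratios of all 7 members lay between the medians of those 2 lists. That range is close to 1.5-fold on either side, within which most of all genes lay too. At 1 other probe set of Atp1b1, rc_AI176376_s_at, newborn over fetal ductus was 1.54-fold.

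In the aorta 3 of 7 members were at least 1.5-fold higher in newborn than in fetus, Jph2, Slc8a1 and Cacna2d1, and 0 lower, where 7.57% of 7677 genes were higher and 10.9% lower. The median of the members was 0.57, against -0.05 for all genes. Atp2a2, at log2 0.57, was just under the threshold, and Cacna1c, at -0.48, lay on the other side of 0. The count was 2 with the floor at the 60th percentile, where Cacna2d1 had log2 0.55, and 2 with the mean of all measured probe sets, where Slc8a1 had 0.27. At X68812_s_at, newborn aorta had 0.883 of the Slc8a1 signal of fetal aorta. Heart muscle genes had 9 of 20 higher with 0 lower and a median of 0.54, and smooth muscle genes a median of 0.43. Fat genes had 8 of 8 higher, with a median of 2.31, and nerve and chromaffin genes 7 of 8 lower, with -1.49. Endothelial genes had 7 of 14 higher and 1 lower, with a median of 0.56. The part of these cell types in the members' ratios was not tested. The comparison shares its fetal aorta arrays with the fetal vessel comparison, so a low fetal aorta signal enters both.

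**Figure D3:**
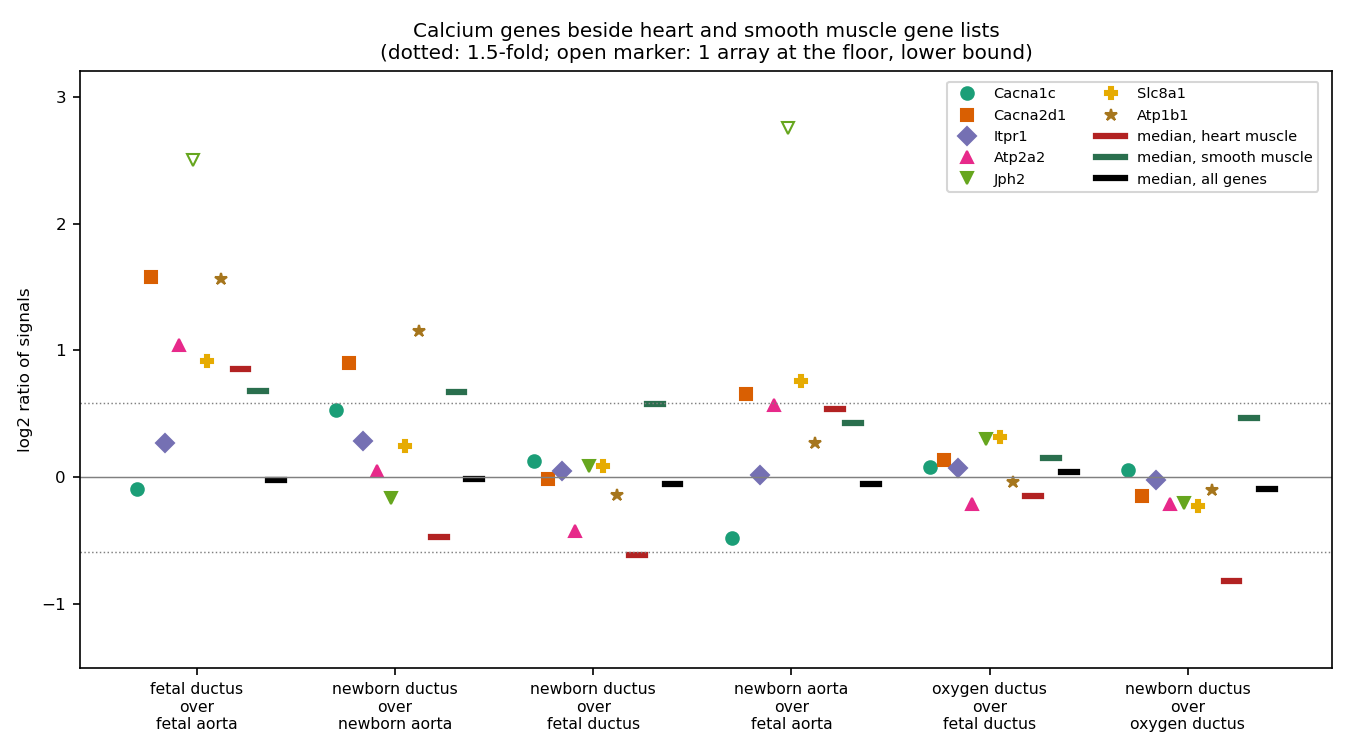
Log2 ratio of signals for the 7 measured members (markers) in the 6 comparisons, with the medians of the heart muscle list, the smooth muscle list and all genes as bars. Dotted lines mark 1.5-fold and open markers a lower bound with 1 array at the floor. All members but Cacna1c lie above 0 in both comparisons over fetal aorta, and all stay within 1.5-fold in the 3 comparisons within the ductus, where the heart muscle median is -0.61 for newborn over fetal ductus.

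After oxygen given to the dam, the members' brightest probe sets were within 1.5-fold of the fetal ductus, with 0 of 7 apart on either side, where 4.44% of 7457 genes were higher and 5.38% lower. Ratios ran from log2 -0.21 for Atp2a2 to 0.32 for Slc8a1, with a median of 0.08, against 0.04 for all genes. Newborn over oxygen ductus likewise had 0 of 7 apart, where 10.5% of 7534 genes were higher and 14.5% lower, and a members' median of -0.15. In that pair 14 of 22 heart muscle genes were lower in newborn ductus, with a median of -0.82. All oxygen ratios come with the higher 3′ over 5′ control ratio of those arrays, 2.54 to 3.26 for beta-actin, whose part in them was not tested.

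Other probe sets of the same genes did differ under oxygen. Slc8a1 at X68812_s_at had 0.450 of the fetal ductus signal, and newborn over oxygen ductus was 2.40-fold. Atp1b1 had 0.690 of the fetal signal at rc_AI176376_s_at and 0.654 at rc_AI230614_s_at, and newborn over oxygen ductus was 2.23-fold and 1.95-fold. At the brightest probe set of Atp1b1 these ratios were 0.971 and 0.934. Probe sets of 1 gene thus disagreed over oxygen ductus by more than they did between the vessels for Atp1b1, on the arrays where the control ratio was high.

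Vessel and birth effects were also fitted with limma for each chip, as an additive model on newborn ductus, fetal ductus, newborn aorta and fetal aorta. With 4 arrays and 1 residual degree of freedom, the vessel by stage contrast served as error. For the vessel effect 0 of 14 member probe sets had a Benjamini-Hochberg adjusted p under 0.05, and 5 of all 13811 did (0.0362%). At an unadjusted p under 0.05 there were 7 of 14 member probe sets, against 7.75% of all. They belonged to Atp1b1, Atp2a2, Cacna2d1 and Slc8a1, the first 2 genes at more than 1 probe set. Probe sets of 1 gene are not independent readings, so the 2 shares are not like for like. Among the members the largest effects were those of Atp1b1, where ductus was higher than aorta by log2 1.36 ± 0.21 (SE) at its brightest probe set, with a limma adjusted p of 0.086. Its 2 other probe sets gave 1.36 ± 0.18 and 1.36 ± 0.20, with limma adjusted p of 0.083 and 0.085. Cacna2d1 followed at 1.24 ± 0.23 with a limma adjusted p of 0.16. Jph2 had 1.17 ± 0.52, Slc8a1 0.58 ± 0.24, Atp2a2 0.55 ± 0.26, Itpr1 0.28 ± 0.19 and Cacna1c 0.22 ± 0.22 at their brightest probe sets. None of these passed the threshold.

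For the birth effect limma called 0 of 14 member probe sets and 228 of 13811 in all (1.65%). At an unadjusted p under 0.05 there were 3 of 14, against 18.6% of all. They were Jph2, newborn over fetus by log2 1.42 ± 0.52, and 2 probe sets of Atp1b1, by 0.59 ± 0.18 and 0.49 ± 0.20, with limma adjusted p of 0.19, 0.17 and 0.23. The brightest probe set of Atp1b1 gave 0.06 ± 0.21. Separate samples of a state would be needed for an error that is free of the interaction.

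The patterns over the 5 states were set beside the median patterns of the heart muscle list (20 genes that passed the floor in 4 or more states) and the smooth muscle list (16 genes). Each log2 signal was centred on its mean over the states, and likeness was the root mean square distance between patterns. Atp2a2 lay nearer to the heart muscle pattern, at 0.19, than to the smooth muscle pattern, at 0.31. With the heart list cut to genes that slow skeletal muscle does not use (7 genes), Atp2a2 was at 0.35 from heart muscle, farther than from smooth muscle, and at 0.35 from a flat pattern. The other 6 lay nearer to the smooth muscle than to the heart muscle pattern with either list. For Slc8a1 the distances were 0.34 to heart and 0.24 to smooth muscle, for Cacna2d1 0.52 and 0.42, for Atp1b1 0.54 and 0.46, and for Jph2, with its fetal aorta set to the floor, 0.87 and 0.82. Itpr1 was at 0.34 and 0.27 and Cacna1c at 0.47 and 0.38, both closer still to a flat pattern, at 0.15 and 0.19. From the median patterns of skeletal muscle and endothelium genes, Cacna1c was at 0.31 and 0.38 and Itpr1 at 0.30 and 0.31. Cacna1c was thus nearer to skeletal than to smooth muscle. The remaining members were farther from both than from smooth muscle. These differences between distances are small, and no test of them is possible with 1 array per state.

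**Figure D4:**
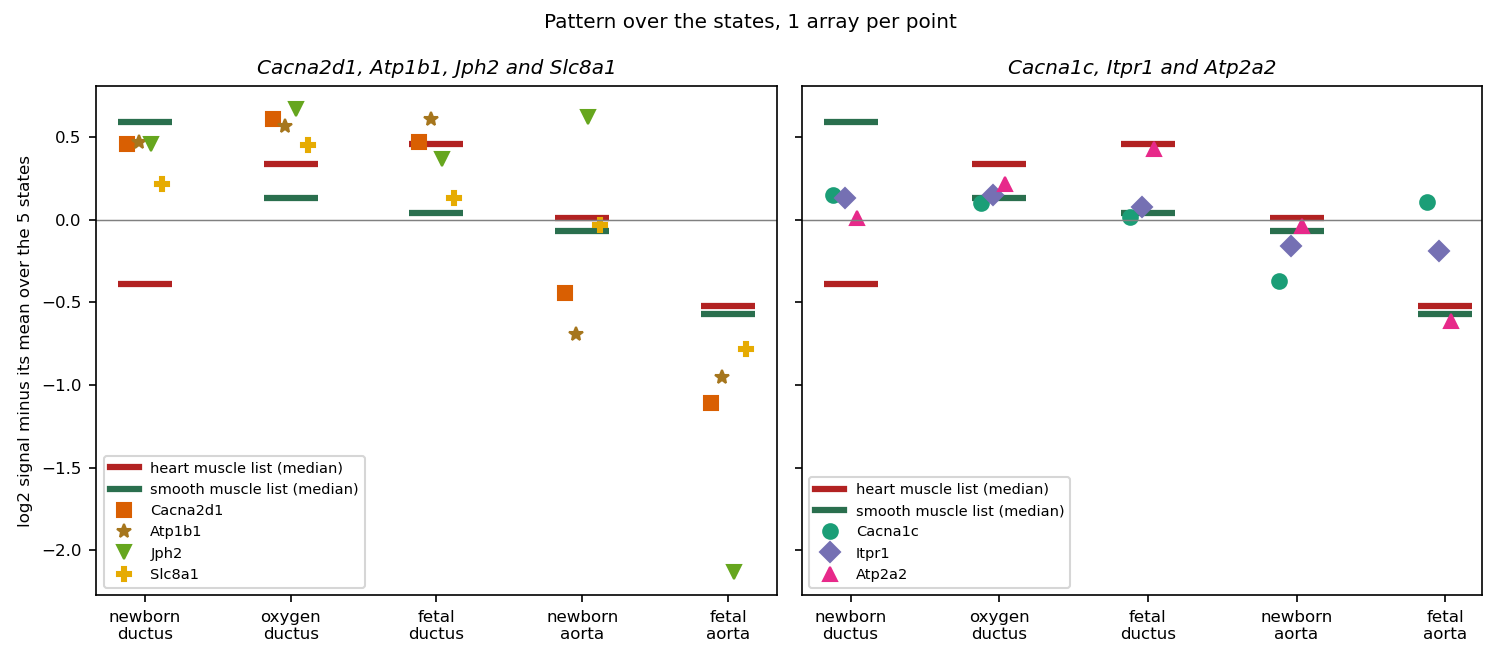
Log2 signal minus its mean over the 5 states for the measured members (markers, 1 array per point), with the median patterns of the heart and smooth muscle lists as bars. In newborn ductus the heart muscle list is at -0.39 and the smooth muscle list at 0.59, with Cacna2d1 at 0.46, Atp1b1 at 0.47, Jph2 at 0.46 and Atp2a2 at 0.01. At these brightest probe sets fetal aorta is the lowest state of 5 for Jph2, Cacna2d1, Atp1b1, Slc8a1, Atp2a2 and Itpr1, and not for Cacna1c. For Itpr1 newborn aorta is only log2 0.02 above it. Some other probe sets of Slc8a1 and Atp2a2 have a different lowest state.

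Among 6243 other genes above the floor on all 5 arrays, the 3 with the nearest pattern were listed for each member. Cacna2d1 and Atp1b1 shared Lrba, at distances of 0.167 and 0.149, and Actg2, the gamma smooth muscle actin, at 0.244 and 0.278. Rbpms for Cacna2d1, at 0.232, and Kalrn for Atp1b1, at 0.246, completed their lists. Actg2 read 16696.4 in newborn ductus, 12917.0 in oxygen ductus, 10628.0 in fetal ductus, 6891.0 in newborn aorta and 5158.5 in fetal aorta. Lrba and Actg2 had all 3 ductus states above both aortas, as the 2 members did, but they were picked for that likeness.

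Atp2a2 was nearest to Nexn, which encodes an actin-binding protein of the Z-disc, at 0.067, then Hspb2 at 0.084 and Ddx50 at 0.096. Slc8a1 was nearest to Slc2a4, the insulin-regulated glucose transporter of muscle and fat, at 0.071, then Schip1 at 0.074 and Zfp579 at 0.075. For Jph2 the nearest were Pdlim3 at 0.520, Popdc2, a gene of the heart muscle list, at 0.526 and Rgs5 at 0.528. But Jph2 itself was under the floor in fetal aorta and the search left out all genes under the floor anywhere. Cacna1c was closest to Wdr13, Ywhag and Gab1, at 0.039 to 0.048, and Itpr1 to Canx, Dele1 and Arfip1, at 0.032 to 0.035. For the last 2 genes, whose patterns were nearly flat, small distances say little beyond that.

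The other calcium and sodium pump genes had medians near 0 between the vessels. Of 61 on the chips, in lists of other entry, release and store, export and exchange, and sodium pump genes, 39 were measured between fetal ductus and fetal aorta, where 1 was at least 1.5-fold higher, 2 were lower and the median was -0.01. Between newborn ductus and newborn aorta 1 of 39 was higher and 0 lower, with a median of 0.05. Between newborn and fetal ductus 3 of 39 were higher and 0 lower, with a median of 0.10. The members' fetal vessel median of 1.04 thus stood beside -0.01 for the genes of these lists, although the members had been chosen with such results known. Genes of the heart's own calcium store were kept in a separate list. Between the fetal vessels 1 of 3 measured there was higher in ductus and 0 lower, with a median of 0.47.

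Named for being at least 2-fold apart, Orai2 and Atp2a3 differed between newborn and fetal ductus. Orai2, a pore subunit of store-operated channels, read 749.1 in newborn ductus, 266.4 in oxygen ductus, 283.6 in fetal ductus, 653.7 in newborn aorta and 539.5 in fetal aorta, with newborn over fetal ductus at log2 1.40. Atp2a3, the SERCA3 pump of endothelium and other tissues, read 816.8, 444.2, 360.8, 913.4 and 443.1 in the same order, with log2 1.18. Endothelial genes also were higher in newborn ductus, 8 of 13 with a median of 0.62, and their part in the Atp2a3 ratio was not tested. Chosen after their values were seen, the remaining genes behind these counts were Orai1, higher in newborn than fetal ductus (log2 0.84), Cacna1b, higher in newborn ductus than newborn aorta (0.67, with the aorta under the floor), Fxyd7, higher in fetal ductus than fetal aorta (1.03, with the aorta under the floor), and Atp2b1, lower in fetal ductus (-0.62, with the ductus under the floor).

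Genes of the heart's own calcium store were mostly weak. Of 6 on the chips, Trdn and Fkbp1b were under the floor in every state, and Pln and Sln in 3 states each. Casq2, the cardiac calsequestrin that buffers calcium in the store, read 1823.7 in newborn ductus, 2184.5 in oxygen ductus, 1991.6 in fetal ductus, 2152.4 in newborn aorta and 1441.1 in fetal aorta. Fetal aorta was again lowest. S100a1, a calcium-binding protein of heart muscle, read 640.8, 458.7, 539.9, 512.4 and 638.0 in the same order, without a low fetal aorta. Calcium sensors and kinases, 14 measured, had 0 higher and 0 lower in fetal ductus over fetal aorta, with a median of 0.01.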

How the data were processed

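RNA of 5 rat vessel states was measured on 3 Affymetrix chip types, 1 array per state and chip. The deposited values were linear signal intensities, which the authors made with MAS5 for 4 of the 5 chip A arrays per the submitters' processing notes; the software for the others is not given in the sources used here. Each array was scaled to a common trimmed mean (2% off each end), signals under the pooled chip median were set to that floor, and log2 was taken. The annotation names 1 gene for 18178 probe sets, several for 391 and none for 7633. The probe set of highest mean signal stood for a gene, which was counted when at least 1.5-fold apart with at least 1 array above the floor. Vessel and birth effects were fitted with limma 3.58.1 (R 4.3.3) for probe sets that passed the floor on 2 or more of 4 arrays, with Benjamini-Hochberg adjustment per chip, after a test on simulated data. Prior degrees of freedom were 6.62, 9.70 and 5.94 on chips A, B and C. The number of arrays limits the precision.

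All members are described. Of the heart and smooth muscle lists the 4 genes of highest mean signal were eligible to be named, of the other calcium lists those at least 2-fold apart in 3 comparisons with both arrays above the floor, and for patterns the 3 nearest genes; S100a1 and Casq2 were named after their values were seen. Alternatives were other floors, quantile normalization, the mean of probe sets, an intensity trend and a shorter heart list. The members and lists were chosen with earlier results of these data known. Promoters came from RefSeq, and the arrays' annotation gave the gene names.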

Additional observations from a re-analysis of the deposited data

Results flagged for a closer look

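Birth ratios of opposite sign in ductus and aorta were seen for 4 members at their brightest probe sets, with 1 array per state, and the difference was not tested. The ductus ratios of Cacna2d1, Cacna1c and Atp1b1 and the aorta ratio of Atp1b1 are under the scatter of 0.289, so their signs are not settled. That scatter is for 1 ratio, and a difference of 2 ratios scatters more. For Atp2a2 newborn over fetus was log2 -0.42 in ductus and 0.57 in aorta, a difference of -0.99. At rc_AA957510_s_at both vessels were on the same side, at -0.46 and -0.21. For Cacna2d1 it was -0.01 and 0.66, a difference of -0.68. For Cacna1c it was 0.13 and -0.48, a difference of 0.62. For Atp1b1 it was -0.14 and 0.27, a difference of -0.41, and at its 2 other probe sets both vessels were on the same side of 0.

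In control probe sets that no comparison used, the oxygen ductus had beta-actin 3′ over 5′ ratios of 2.95 (chip A), 2.54 (chip B) and 3.26 (chip C), above the 1.19 to 1.51 of the other arrays.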

How the results depend on the processing

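Of 168 alternative values for single members' ratios, 156 lay within 0.297 (log2) of the value reported, 12 moved further (Atp1b1, Atp2a2, Jph2 and Slc8a1) and 0 ratios of at least 1.5-fold changed sign. Smaller ratios changed sign in 6, and 4 of these moved beyond 0.297, all with the mean of probe sets: Slc8a1 to -0.40 for oxygen over fetal ductus and to 0.57 for newborn over oxygen ductus, and Atp1b1 to 0.28 for newborn over fetal ductus and to 0.68 for newborn over oxygen ductus. With the mean of all measured probe sets, the members' median for fetal ductus over fetal aorta was 0.72, Slc8a1 there was 0.36, and 1 member, Atp1b1, was apart between newborn and oxygen ductus. With the floor at the 25th percentile Ryr2 was counted as well. The members apart were then 6 between the fetal vessels, 3 between the newborn vessels, 4 between the aortas and 1 between newborn and fetal ductus. Ryr2 was lower in newborn ductus than in newborn aorta and in fetal ductus. With that floor the Jph2 bounds over fetal aorta were 2.91 for fetal ductus and 3.17 for newborn aorta. With the 60th percentile they were 1.83 and 2.08. For the vessel effect limma called 1 member probe set (Atp1b1) with the 60th percentile floor, 1 (the same) with quantile normalization and 4 (3 of Atp1b1 and Cacna2d1) with an intensity trend; for birth it called 1 (Jph2) with the trend. Over all probe sets vessel calls were 0 with the lower floor, 33 with the higher floor, 20 with quantile normalization and 64 with the trend, against 5, and birth calls 0, 418, 244 and 534, against 228. For distance to the heart minus to the smooth muscle pattern, with alternatives chosen after seeing the data, Atp2a2 turned to 0.04 with the shorter heart list; its sign under the other 4, and the sign of the other members under all 5 (both floors, quantile normalization, no oxygen ductus, the shorter list), was that reported. No paired analysis was possible because each state had 1 array per chip, which also left no replicate to leave out.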
